A study of Rattus norvegicus with 60 samples.

Results

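RNA levels in the cortex of rats injected with lamotrigine were compared with those of rats injected with its vehicle. The comparison rested on 10 of the 60 arrays of the series, namely the 5 cortex arrays of each of these groups, which were chosen by their labels alone. Lamotrigine (30 mg/kg) or its vehicle was given under the skin once a day for 21 days to rats of the strain labelled SD, with no genetic change named for either group. The other arrays covered the hippocampus and striatum of the same 10 animals, by the animal numbers in the sample descriptions, and 3 regions of rats that ate chow with 0.2% LiCl or plain chow, which makes 12 groups of 5. Age, sex, the time from the last injection to tissue collection and the size of the piece of cortex are not given in the sources used here. One field of the labels calls the tissue mouse and another names constant delivery of drug. Rat and daily injection, as stated for the organism, the array and the design, were followed.

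Lamotrigine is given against seizures and as a mood stabiliser. It binds voltage-gated sodium channels and slows their recovery from inactivation, so that trains of action potentials and the glutamate release they drive are dampened, and it acts in addition on some calcium channels and on HCN pacemaker channels. In the cortex, sodium channels of excitatory neurons and interneurons carry the action potential, and bursts of firing switch on a set of immediate early genes, such as Fos, Arc and Junb, within minutes to hours. The comparison therefore asked which RNA levels, among them those of the drug's targets and of genes that follow neuronal activity, differed after repeated dosing.

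Levels are log2 of the deposited array intensity, differences are lamotrigine minus injection vehicle on that scale with the SE of a limma fit over the 20 cortex arrays, and adjusted p-values are from limma with the method of Benjamini and Hochberg over 31042 probe sets. Rats are numbered here by the replicate number in the titles of their cortex arrays. The 10 arrays had median intensities of 97.9 to 101 and correlated with each other at r from 0.99 to 0.996 across probe sets, and no pair was identical. The spread of log2 values (75th minus 25th percentile) was 3.47 ± 0.10 with lamotrigine and 3.53 ± 0.02 with vehicle (mean ± SD, n = 5 each; exact two-sided permutation p = 0.206, where 0.00794 is the smallest possible), and lamotrigine rats 1 and 5 were lowest at 3.36. The ratio of 3 prime to 5 prime control signal, a measure of RNA quality, was 0.83 ± 0.13 and 0.82 ± 0.10 on the log2 scale (n = 5 each, exact two-sided permutation p = 0.873). Markers of upper layer cortical neurons averaged 8.23 to 8.38 in the 10 cortex arrays against 7.53 to 7.70 in the hippocampus and 7.85 to 8.01 in the striatum of the same rats, and markers of striatal medium spiny neurons averaged 7.51 to 7.77 against 11.13 to 11.54 in the striatum. The markers of deep layer neurons did not set the regions apart (8.75 to 9.09 in the cortex, 8.70 to 9.11 and 8.87 to 9.33 in the hippocampus and striatum). In markers of tissue next to the cortex, 3 arrays stood apart. Vehicle rat 5 had high levels of choroid plexus genes, and lamotrigine rat 3, vehicle rat 3 and, less so, vehicle rat 5 had high levels of meningeal genes, with values given further on.

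No probe set was called between lamotrigine and its vehicle in the cortex. In limma, 0 of 31042 probe sets (0%) had an adjusted p under 0.05, and the smallest adjusted p was 0.258. At an unadjusted p under 0.05 there were 1799 (5.8%), of which 1007 (3.24%) were higher and 792 (2.55%) lower with lamotrigine. The count of calls was also 0 after quantile normalization, median centring, removal of dim probe sets, a covariate for spread or for RNA quality, in the 10 arrays alone and in a fit of all 60 arrays. It was 1 without vehicle rat 4 and 2 without vehicle rat 5, and 0 without any of the other 8 arrays. The number at an unadjusted p under 0.05 was 3480 without lamotrigine rat 3, 1169 without lamotrigine rat 5 and 1021 when array spread was a covariate.

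The differences were small, and the 5 rats per group measured most of them closely. The median SE of a log2 difference was 0.09 and the median 95% interval reached 0.19 to either side. For 30243 probe sets (97.4%) that interval lay within a 1.5-fold change either way, and for 30920 (99.6%) within a 2-fold change. These shares are over all probe sets, among them 12823 with a mean level under 6. Arrays hold little signal there, so an interval of array level may not bound the change in RNA. The 5th and 95th percentiles of the differences were -0.18 and 0.18, and the median over all probe sets was 0.01. By level, the median was 0.04 for the 12823 probe sets with a mean level under 6, -0.01 for the 8906 between 6 and 8, -0.02 for the 6860 between 8 and 10 and -0.004 for the 2453 above 10. A fold over 1.5 was reached by 49 probe sets (0.158%), 12 higher (0.0387%) and 37 lower (0.119%), and the arrays of the groups did not overlap for 237 probe sets (0.763%), 146 higher (0.47%) and 91 lower (0.293%).

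A fold over 2 was reached by 4 probe sets (0.0129%), none of which was called. Ttr, the transport protein for thyroid hormone made by the choroid plexus, differed by -1.81 (SE 0.77, adjusted p = 0.844), with vehicle rat 5 at 12.74 and the other 9 rats between 6.06 and 8.20. Ptprd, a receptor tyrosine phosphatase of synapses, differed by -1.05 and is described below. An unnamed probe set, 1386855_at, differed by 1.74 (SE 0.47, adjusted p = 0.659), with lamotrigine rats at 7.44 to 8.32, vehicle rats 1 to 4 at 5.69 to 5.90 and vehicle rat 5 at 8.05. One of 3 probe sets of Jund, a subunit of the AP-1 transcription factor, differed by 1.19 (SE 0.41, adjusted p = 0.817) with overlapping groups, 6.23 to 7.44 with lamotrigine and 4.32 to 7.37 with vehicle, while the others differed by 0.12 and 0.04. Jund was named after its values were seen.

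The 24 genes with the smallest p are given as values that did not pass, with adjusted p from 0.258 to 0.605. In each of them all 5 lamotrigine rats lay beyond the vehicle mean on the same side. Of these, 12 were higher and 12 lower with lamotrigine, and the groups did not overlap in 19. These counts follow from the choice by p and are descriptions.

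**Figure D1:**
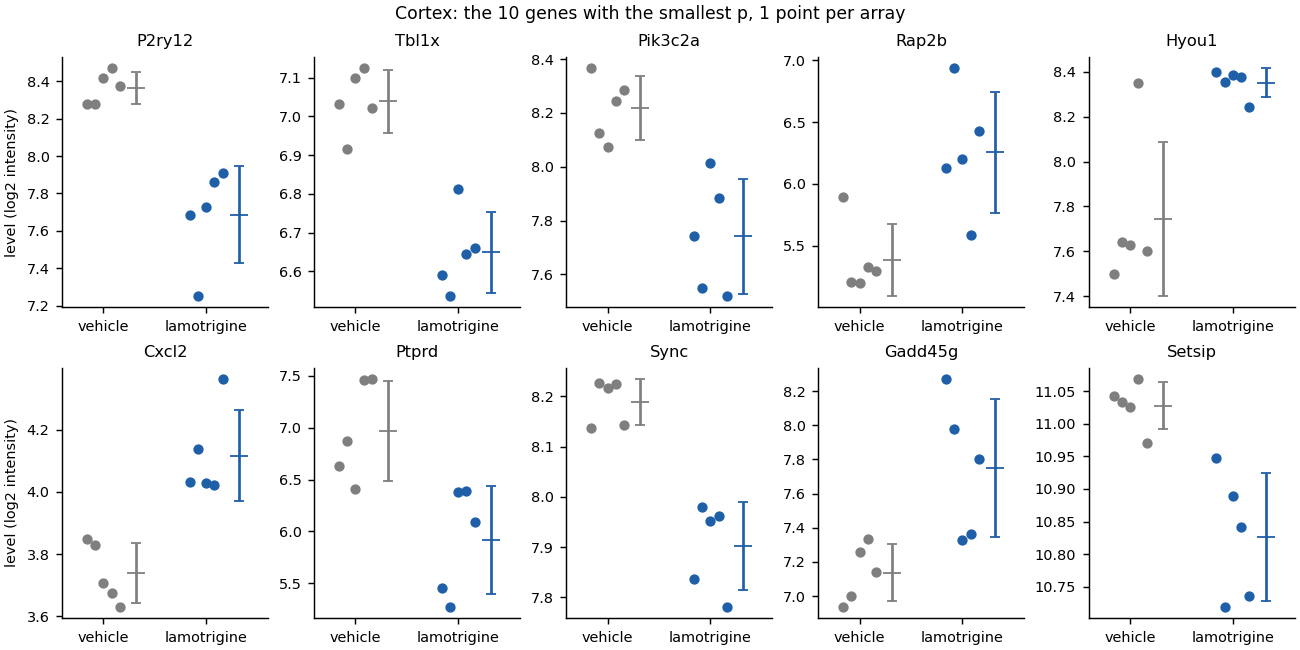
Levels (log2 intensity) of the 10 genes with the smallest p in each cortex array, with 1 point per rat in replicate order from left to right, and the group mean and SD beside them. The vehicle and lamotrigine points do not overlap except in Rap2b, Hyou1 and Gadd45g, and no gene was called.

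P2ry12, the purinergic receptor with which resting microglia sense nucleotides, had the smallest p. Its levels were 7.69, 7.25, 7.73, 7.86 and 7.91 in lamotrigine rats 1 to 5 and 8.28, 8.28, 8.42, 8.47 and 8.37 in vehicle rats 1 to 5. Every lamotrigine rat lay below every vehicle rat, and the difference was -0.68 (SE 0.13, 95% interval -0.94 to -0.41, adjusted p = 0.258). The other probe set of P2ry12 differed by -0.57 (SE 0.14, adjusted p = 0.505), with lamotrigine rats at 8.11 to 9.05 and vehicle rats at 8.91 to 9.38, so that the groups overlapped there. Both values came from whole tissue, in which fewer cells of a type and less RNA per cell cannot be told apart.

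Tbl1x, a subunit of a corepressor complex of nuclear receptors, was at 6.59, 6.54, 6.81, 6.64 and 6.66 in lamotrigine rats 1 to 5 and at 7.03, 6.91, 7.10, 7.12 and 7.02 in the vehicle rats. The groups did not overlap, and the difference was -0.39 (SE 0.07, adjusted p = 0.258). The other probe sets of Tbl1x differed by -0.08 and 0.13 and did not share this value. Pik3c2a, a class II phosphoinositide 3-kinase of membrane traffic, was at 7.74, 7.55, 8.01, 7.88 and 7.52 against 8.37, 8.13, 8.07, 8.24 and 8.29, again with no overlap and a difference of -0.48 (SE 0.09, adjusted p = 0.258). Its other probe set differed by -0.15.

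Hyou1, a chaperone of the endoplasmic reticulum that is induced by hypoxia, gave the most even lamotrigine group, at 8.40, 8.35, 8.39, 8.38 and 8.24. Vehicle rats 1, 2, 3 and 5 were at 7.50, 7.64, 7.63 and 7.60, whereas vehicle rat 4, at 8.35, lay among the lamotrigine rats. The difference was 0.61 (SE 0.13, adjusted p = 0.419). Its other probe set differed by 0.53 (SE 0.16, adjusted p = 0.705). Without vehicle rat 4 the difference was 0.76 and Hyou1 was the only probe set called (adjusted p = 0.00611).

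Rap2b, a small GTPase of the Ras family, had a similar layout. Lamotrigine rats 1 to 5 were at 6.13, 6.93, 6.20, 5.59 and 6.42, vehicle rats 2 to 5 at 5.21, 5.20, 5.33 and 5.29, and vehicle rat 1 at 5.89, above lamotrigine rat 4. Rap2b was dim, with cortex means of 6.26 with lamotrigine, 5.38 with injection vehicle, 5.95 with chow vehicle and 5.46 with LiCl. No other probe set read it. Its difference was 0.87 (SE 0.19, adjusted p = 0.419), the largest positive one among the 24. Ptprd had the largest negative one, -1.05 (SE 0.23, adjusted p = 0.419), with 5.45, 5.28, 6.38, 6.39 and 6.09 in the lamotrigine rats and 6.63, 6.87, 6.41, 7.46 and 7.47 in the vehicle rats. The lowest vehicle rat and the highest lamotrigine rat were almost level, and the other probe sets of Ptprd differed by only -0.09 and -0.12.

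Gadd45g, a gene of the response to stress and neuronal activity, was at 8.27, 7.98, 7.33, 7.36 and 7.80 in lamotrigine rats 1 to 5 and at 6.94, 7.002, 7.26, 7.34 and 7.14 in the vehicle rats. Rats 1, 2 and 5 of the lamotrigine group lay above all vehicle rats, and rats 3 and 4 stood beside the highest of them. The difference was 0.61 (SE 0.14, adjusted p = 0.419).

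The rest of the 24 showed smaller differences. Among genes with a level above 6, Sync differed by -0.29, Setsip by -0.20, Slc6a6, the taurine transporter, by -0.33 and Slc7a5, which carries large neutral amino acids across the blood-brain barrier, by -0.28. Aff1 differed by -0.34, Zbtb41 by -0.43 and Fli1, a transcription factor of endothelial and blood cells, by -0.48, while Lingo1, an inhibitor of myelination and axon growth, differed by 0.31 and Rsph6a by 0.28. At mean levels under 6, where arrays hold little signal, Cxcl2, a chemokine that draws neutrophils, differed by 0.38, Plau, the urokinase plasminogen activator, by 0.39, Cdcp1 by 0.37, Slc14a2, a urea transporter, by 0.34, Akap4 by 0.33, Eaf2 and Zfand4 by 0.31 each and Nxpe1 by -0.51. Other probe sets of these genes often gave less. The brightest of Lingo1 was at -0.07 and another at 0.001. The brightest of Fli1 was at 0.07, while its remaining ones were at -0.21 and -0.26. The other ones of Zfand4, Sync, Plau and Cdcp1 were at -0.13, -0.04, 0.03 and 0.02.

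**Figure D2:**
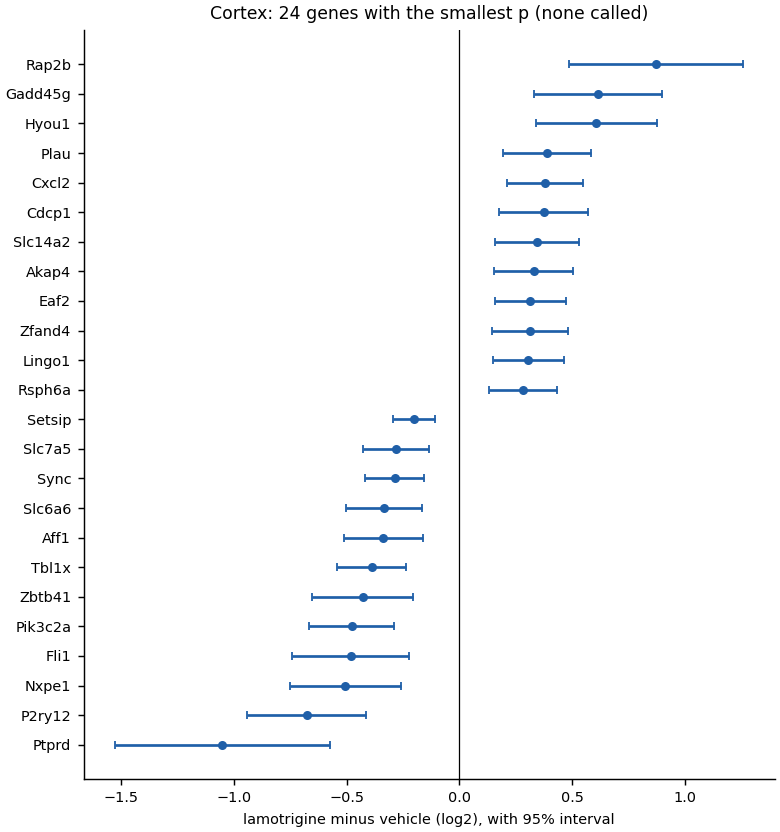
Log2 differences, lamotrigine minus injection vehicle in the cortex, of the 24 genes with the smallest p, with 95% intervals of the limma fit. They run from -1.05 for Ptprd to 0.87 for Rap2b, and no interval reaches 0, as follows from choosing the genes by p.

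The same rats gave the hippocampus and striatum, so the other regions hold further measurements of these animals and no further animals. P2ry12 differed by -0.51 in the hippocampus and -0.46 in the striatum, Hyou1 by 0.56 and 0.63, Rap2b by 1.09 and 0.58, Ptprd by -0.64 and -0.54, and Gadd45g by 0.64 and 0.46. Vehicle rat 4 was high in Hyou1 in every region, at 8.35 in the cortex, 8.36 in the hippocampus and 8.49 in the striatum, against 7.48 to 7.75 in the other vehicle rats over all 3 regions. Vehicle rat 1 was likewise high in Rap2b, at 5.89, 6.46 and 6.19, against 5.20 to 5.67. All 3 arrays of the animal shared these levels in each case. Of the 24 leading genes, 11 had the same sign in both other regions as in the cortex, 13 had the other sign in at least 1 of them and 5 in both. Tbl1x (0.03 in the hippocampus and -0.05 in the striatum), Cxcl2 (0.08 and -0.06) and Lingo1 (-0.05 and -0.01) differed little there. Zbtb41 (0.13 and 0.04) and Aff1 (0.05 and 0.09) had the other sign in both, Slc6a6 in the hippocampus (0.13) and Sync in the striatum (0.20). In a fit of the 30 arrays of the injected rats with the animal as a random block, the lamotrigine effect differed between cortex and hippocampus, or between cortex and striatum, for 0 of 31042 probe sets by limma's adjusted p, with 1451 (4.67%) and 1078 (3.47%) at an unadjusted p under 0.05.

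**Figure D3:**
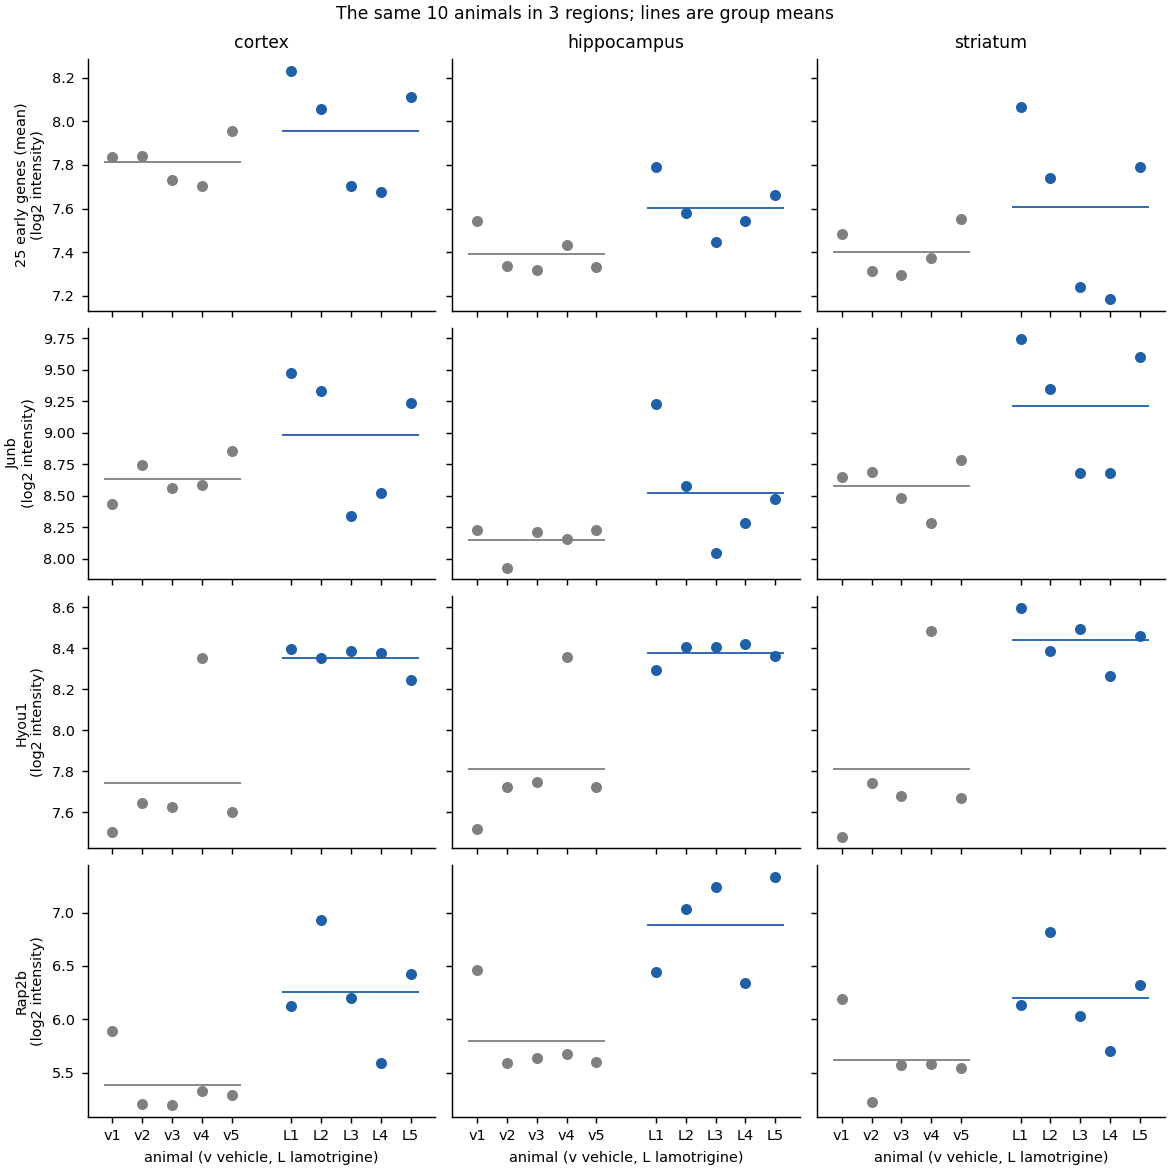
Levels (log2 intensity) in the cortex, hippocampus and striatum of the same 10 rats, for the mean of 25 immediate early genes, Junb, Hyou1 and Rap2b, with vehicle rats v1 to v5 in grey, lamotrigine rats L1 to L5 in blue and lines at the group means. Vehicle rat 4 in Hyou1 and vehicle rat 1 in Rap2b lie above the other vehicle rats in all 3 regions, and lamotrigine rats 1, 2 and 5 are above rats 3 and 4 in Junb in the cortex and striatum.

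Some of the leading genes also differed between the injected and the chow-fed control rats, a comparison that shares the injection vehicle arrays with the drug comparison. Injection vehicle minus chow vehicle was 0.88 for P2ry12, 1.48 for Tbl1x, 1.25 for Ptprd, 0.43 for Setsip and 0.70 for Slc6a6, opposite in sign to the lamotrigine differences, and -0.68 for Hyou1, -0.57 for Rap2b and -0.33 for Cdcp1. For the other P2ry12 probe set it was 0.08, and for the other Hyou1 probe set -0.55. For Slc7a5 it was -0.48, the same sign as with lamotrigine. In that comparison 5875 probe sets (18.9%) were called, and since both share the vehicle rats, opposite signs can arise from these arrays alone. LiCl minus chow vehicle, which shares no array with the lamotrigine comparison, was 0.16 for P2ry12, 0.06 for Hyou1 and -0.49 for Rap2b, none of them called. It was called, with the sign of the lamotrigine difference, for Pik3c2a (-0.31), Sync (-0.23), Cxcl2 (0.27), Lingo1 (0.24) and Slc14a2 (0.27). No other leading gene was called there, and 13.4% of all probe sets were. The other probe sets of Lingo1 had the opposite sign with LiCl, at -0.21 and -0.36.

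Sodium channels, the main targets of lamotrigine, showed no called difference in their RNA. Of 14 listed subunits and partners 12 were measured, 7 with a positive and 5 with a negative difference and 0 called (0% of all probe sets were called), and the list median was 0.03 against 0.01 over all probe sets. That median had no settled sign, since it was -0.02 without vehicle rat 5, -0.03 without lamotrigine rat 2, -0.02 without lamotrigine rat 5, -0.03 with the spread as a covariate and -0.01 with the meningeal level as one. The groups overlapped in all 12 genes, as they did in all but 0.763% of all probe sets.

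Among the pore-forming subunits, Scn1a, the channel of fast-spiking interneurons, was at 10.62, 10.45, 10.77, 11.03 and 10.79 in lamotrigine rats 1 to 5 and at 10.59, 10.52, 10.56, 10.79 and 10.52 in the vehicle rats. Its difference was 0.14 (SE 0.10, 95% interval -0.08 to 0.35). Scn2a, the channel of excitatory axons early in life, was almost level between groups at -0.02 (SE 0.05, 95% interval -0.12 to 0.08), and Scn3a at -0.05 (-0.27 to 0.16). Scn8a, the main channel of the axon initial segment, was at -0.14 (SE 0.10, 95% interval -0.35 to 0.07), and Scn9a, with levels of 3.59 to 4.03, at 0.03. Each of these intervals lay within a 1.5-fold change either way.

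Of the beta subunits, which set the gating and placement of the pore, Scn2b differed by 0.05, Scn3b by 0.04 and Scn4b by 0.09, the last with the widest interval of the list, -0.28 to 0.47. Fgf12, 1 of the intracellular fibroblast growth factor homologues that bind the channel's tail, had the only unadjusted p under 0.05 of the list, with a difference of 0.16 (SE 0.08, adjusted p = 0.855). Its lamotrigine rats were at 10.56, 10.84, 10.51, 10.73 and 10.70 and its vehicle rats at 10.62, 10.37, 10.55, 10.63 and 10.36, and its other 2 probe sets had the same sign. Fgf13 (-0.06) and Fgf14 (0.02) differed less, and Ank3, the ankyrin that anchors sodium channels at the axon initial segment, by -0.09.

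Other channels and the release machinery also had no called member. Of 4 HCN genes measured, Hcn2 (0.14, SE 0.06, adjusted p = 0.835), Hcn3 (0.17) and Hcn4 (0.11) had positive differences, and the partner gene Pex5l had -0.21. The HCN median was 0.13 and ran from 0.07 to 0.14 over the alternatives. Calcium channels had 4 positive and 13 negative differences of 17, with a median of -0.05. Cacna2d1, the auxiliary subunit bound by gabapentin, was at 10.36, 10.46, 10.46, 10.12 and 10.33 with lamotrigine and 10.60, 10.52, 10.48, 10.69 and 10.64 with vehicle. These did not overlap, and the difference was -0.24 (SE 0.07, adjusted p = 0.659). Cacna1i, a T-type channel, differed by 0.26. Potassium channels had 20 of 29 positive and a median of 0.03. Glutamate receptors and scaffolds had 8 of 25 positive (median -0.03), GABA receptors and transporters 5 of 13 (median -0.04) and genes of vesicle release and glutamate loading 12 of 23 (median 0.002). Cplx2, a complexin that clamps vesicle fusion, differed by -0.38 (SE 0.14, adjusted p = 0.817), with vehicle rat 4 at 10.93 and the other 9 rats at 9.51 to 10.25. Gabrg1 differed by -0.29 and Grm3 by -0.12.

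Immediate early genes lay mostly on 1 side. Of 27 listed 25 were measured, 21 with a positive and 4 with a negative difference, whereas 53.8% of all 14217 genes were positive. Their median was 0.11 against 0.01 for all genes, 6 were higher at an unadjusted p under 0.05 (background 3.24% of probe sets) and 0 were called. The median stayed positive in each alternative tried, from 0.02 with the spread as a covariate to 0.22 without the 3 arrays highest in meningeal genes.

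The lamotrigine rats were not alike in these genes. Mean levels over the 25 genes were 8.23, 8.06, 7.70, 7.67 and 8.11 in lamotrigine rats 1 to 5 and 7.84, 7.84, 7.73, 7.70 and 7.96 in the vehicle rats. Rats 1, 2 and 5 lay above every vehicle rat, and rats 3 and 4 lay at or just below the lowest of them. In the striatum of the same rats the means were 8.07, 7.74, 7.24, 7.19 and 7.79 with lamotrigine against 7.48, 7.31, 7.29, 7.37 and 7.55 with vehicle, with the same 3 rats above all vehicle rats and the same others below them. In the hippocampus they were 7.79, 7.58, 7.45, 7.54 and 7.66 against 7.54, 7.34, 7.32, 7.43 and 7.33. There rat 3 was lowest of the lamotrigine group, whereas rat 4 was lowest in the cortex and striatum. Lamotrigine rats 1 and 5 were also the arrays with the smallest spread of log2 values, 3.36, while rat 2 was at 3.50, rat 4 at 3.53 and rat 3 at 3.57, and their part in these levels was not tested beyond the covariate above.

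The promoters of 3 activity-induced genes with this layout are printed because each holds the cAMP response element (CRE), the site of the activity-regulated factor CREB, or its shorter core. They run from 250 bases before to 50 after the annotated start in RefSeq (build GRCr8), 5′ to 3′. Capitals mark the CRE (TGACGTCA) in Ier2 and Dusp1 and its core (TGACG) in Junb.
Ier2, chr19:40399123-40399422, + strand: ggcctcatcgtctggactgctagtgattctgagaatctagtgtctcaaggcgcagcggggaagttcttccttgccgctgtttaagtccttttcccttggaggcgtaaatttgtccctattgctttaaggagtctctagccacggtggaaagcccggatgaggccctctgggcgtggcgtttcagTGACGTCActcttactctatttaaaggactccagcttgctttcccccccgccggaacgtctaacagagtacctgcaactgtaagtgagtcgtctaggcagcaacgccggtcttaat
Dusp1, chr10:17184603-17184902, + strand: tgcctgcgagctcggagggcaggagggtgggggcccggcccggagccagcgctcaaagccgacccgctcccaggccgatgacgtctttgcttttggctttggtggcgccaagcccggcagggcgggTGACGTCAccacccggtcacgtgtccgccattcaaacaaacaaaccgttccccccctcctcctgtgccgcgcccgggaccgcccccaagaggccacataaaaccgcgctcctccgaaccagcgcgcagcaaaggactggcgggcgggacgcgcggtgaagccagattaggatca
Junb, chr19:40080876-40081175, + strand: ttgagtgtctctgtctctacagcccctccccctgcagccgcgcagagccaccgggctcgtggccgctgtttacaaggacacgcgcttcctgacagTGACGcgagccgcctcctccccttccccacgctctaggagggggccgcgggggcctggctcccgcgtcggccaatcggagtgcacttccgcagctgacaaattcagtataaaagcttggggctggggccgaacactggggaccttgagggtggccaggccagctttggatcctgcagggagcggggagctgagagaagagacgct
The CRE began 66 bases before the start in Ier2 and 124 in Dusp1, and the core 155 before it in Junb. On either strand, the whole CRE was found in 3 of the 18 early genes with a promoter in the table (16.7%), Maff, Jund and Ier2, and in 1.83% of all 33469 promoters of this length. The core, which every whole CRE holds on both strands, was found in 12 of 18 (66.7%) and in 21.2% of all promoters. It was as frequent in the list of endoplasmic reticulum chaperones and unfolded protein response, at 13 of 20 (65.0%), so it was not particular to the early genes. Of the leading genes 5 of 21 (23.8%) held it. Of the 5 motifs searched, the CArG box of serum response factor was found in 3 of 18 (16.7%, against 1.64% of all promoters), TATAAA in 6 of 18 (33.3%, against 14.2%) and the endoplasmic reticulum stress element in 0 of 18 (against 0.0657%). The 3 printed genes were chosen by layout and motif together. The core was also found in Nr4a1 (difference 0.34) and Sik1 (0.27), and in Egr1 (-0.04) and Nr4a2 (0.001). Jund, with the whole CRE, differed by 0.12 in its brightest probe set, with overlapping groups. A match of letters is a description and not a bound site.

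Ier2, an immediate early gene, was at 7.64, 7.34, 6.63, 6.65 and 7.39 in lamotrigine rats 1 to 5, against 6.90, 6.78, 6.85, 6.75 and 6.76 in the vehicle rats. The difference was 0.32 (SE 0.15, adjusted p = 0.855). Dusp1, a phosphatase that turns off MAP kinases and is itself induced by activity, was at 10.69, 10.14, 9.60, 9.69 and 10.51 against 9.63, 9.69, 9.24, 9.72 and 9.83, a difference of 0.50 (SE 0.16, adjusted p = 0.705). Its other probe set differed by 0.57. Junb, an AP-1 subunit, was at 9.47, 9.33, 8.34, 8.52 and 9.24 against 8.43, 8.74, 8.56, 8.59 and 8.86, a difference of 0.34 (SE 0.16, adjusted p = 0.855). In all of these, rats 1, 2 and 5 lay above every vehicle rat, and rats 3 and 4 lay within or below the range of the vehicle group.

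Nr4a1, Arc and Fos were read in the same way after their values were seen. Arc, which trims AMPA receptors from active synapses, was at 10.59, 10.03, 9.32, 8.92 and 10.39 with lamotrigine and 9.48, 9.36, 9.03, 9.29 and 9.89 with vehicle (difference 0.44, SE 0.25). Fos differed by 0.34 (SE 0.22) and Nr4a1 by 0.34 (SE 0.18), and neither group stood clear of the other. Egr1 and Fosb, by contrast, were at -0.04 and -0.15, and Homer1 and Ier5 were the other genes below 0. Of the members with the smallest p, Maff (0.24, SE 0.07, adjusted p = 0.668) had lamotrigine rat 4 at 3.84 and the other lamotrigine rats at 4.03 to 4.11, against 3.75 to 3.84 with vehicle, all at dim levels, and Ccn1 (0.18) and Fosl1 (0.17) were dim as well. With the spread as a covariate the differences were smaller, at 0.004 for Arc, 0.02 for Fos, 0.02 for Nr4a1, 0.09 for Junb, 0.14 for Ier2 and 0.23 for Dusp1.

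Lists of signalling and stress genes stayed near 0. MAP kinase phosphatases and Sprouty proteins had 9 of 12 positive with a median of 0.04, and apart from Dusp1 no member had an unadjusted p under 0.05. Neurotrophins and activity-regulated secreted factors had 7 of 14 positive and a median of -0.02, and Scg2, the precursor of secretoneurin, differed by 0.22. Glucocorticoid receptor and target genes had 10 of 19 positive and a median of 0.03. Nr3c1, the receptor itself, was at -0.20, Nr3c2 at -0.15 and the target Fkbp5 at -0.17, whereas Hif3a was the highest of the list at 0.21. Circadian clock genes were split 10 to 10 with a median of 0.003, and Per2 differed by -0.29.

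Genes of inositol and phosphoinositide metabolism had 16 of 27 positive and a median of 0.02. Pik3r1, the regulatory subunit of phosphoinositide 3-kinase, stood out at 0.76 (SE 0.26, adjusted p = 0.817), with lamotrigine rats 4 and 5 at 8.39 and 8.33, rats 1 to 3 at 6.83 to 7.03 and vehicle rats at 6.27 to 7.09. The same gene differed by 0.93 in the hippocampus and 0.80 in the striatum. Medians were -0.04 for the Wnt and GSK3 pathway, -0.01 for protein kinase C and cAMP signalling, 0.01 for folate and one-carbon metabolism, -0.01 for drug metabolism and transport and 0.03 for monoamine receptors and enzymes. Mthfd1l, a mitochondrial folate enzyme, differed by -0.35 and Htr1b, a serotonin receptor, by 0.19.

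Endoplasmic reticulum chaperones and genes of the unfolded protein response had 10 positive and 14 negative differences of 24 and a median of -0.01, so the Hyou1 difference was not shared by the list. Ppp1r15a, a phosphatase subunit of the stress response that activity also induces, differed by 0.27, Dnajc3 by -0.22 and Atf4 by 0.08. Medians were -0.01 for cytosolic heat shock proteins and for Bcl2 family and survival genes, 0.03 for cholesterol synthesis and export, 0.02 for inflammatory mediators, -0.04 for interferon response and antigen presentation, 0.02 for oxidative phosphorylation and -0.01 for osmotic and ion transport genes. Nfkb1 differed by -0.20 (SE 0.07, adjusted p = 0.808), with lamotrigine rats at 7.48 to 7.83 and vehicle rats at 7.85 to 7.91. Il6r differed by -0.29, whereas Nos2 differed by 0.21 and Rela by 0.16. Of the 28 inflammatory mediators 18 were higher and 10 lower. Xiap, an inhibitor of caspases, differed by -0.21.

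**Figure D4:**
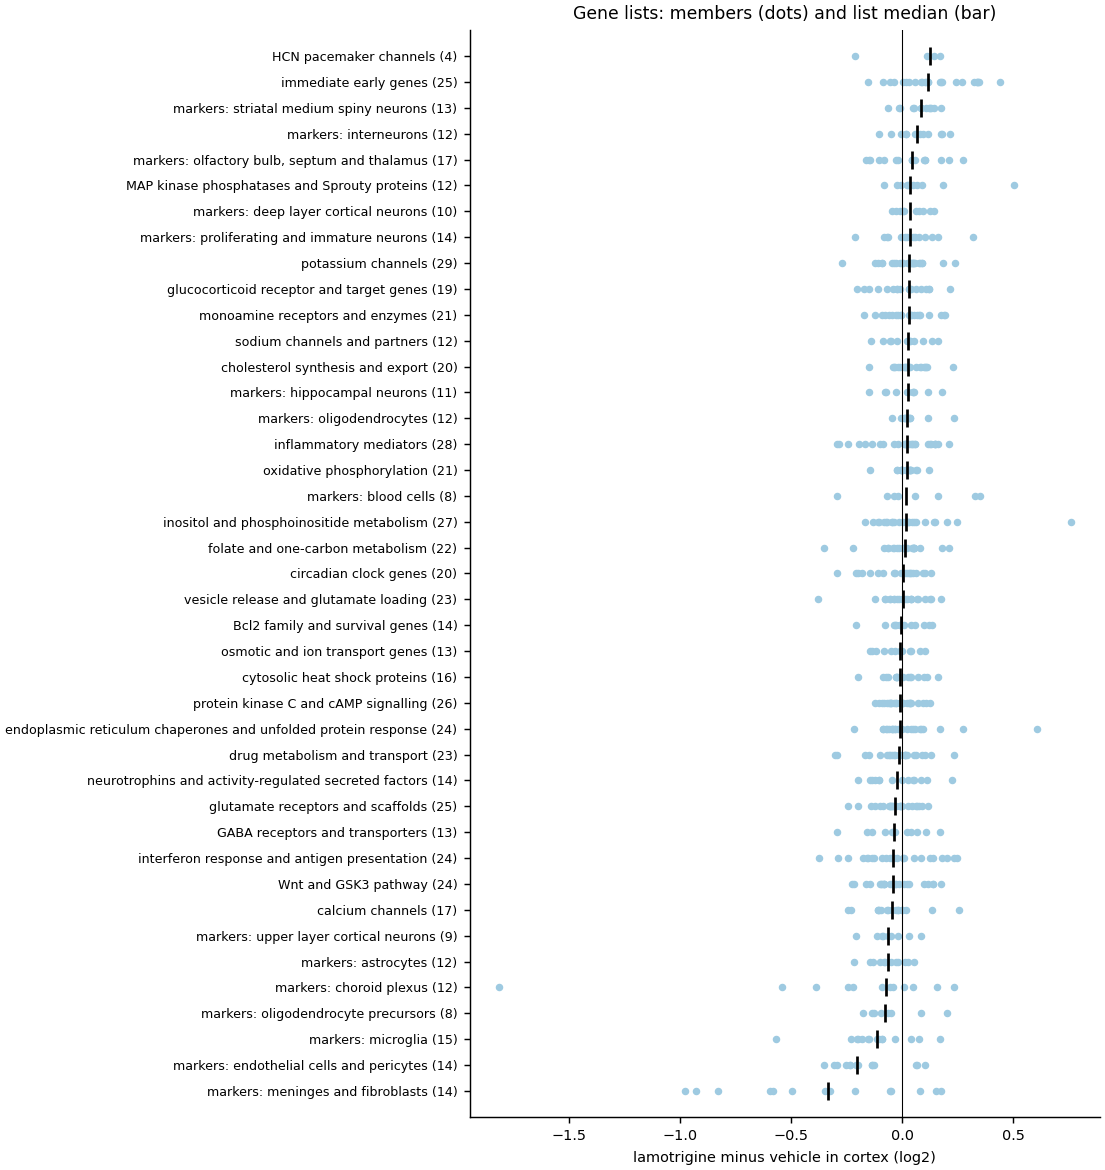
Log2 differences, lamotrigine minus injection vehicle in the cortex, of the measured members of 41 gene lists (dots, with their number in brackets) and the list medians (bars), in order of the median. Medians run from -0.34 for meninges and fibroblasts to 0.13 for HCN pacemaker channels, and no member was called.

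Markers of the meninges, of endothelial cells and pericytes and of microglia had the most negative medians. Microglia genes had 12 of 15 members lower (median -0.11), endothelial and pericyte genes 11 of 14 (median -0.20) and meningeal and fibroblast genes 11 of 14 (median -0.34), against 46.2% lower over all genes, with 0 called in each. P2ry12, entered here by its brighter probe set (-0.57), was the only microglia gene of the 15 with a difference beyond 0.25 either way. Ctss differed by -0.18, Csf1r, the receptor for colony-stimulating factor, by -0.21 and Fcer1g by -0.20, and in each of them the lamotrigine and vehicle rats overlapped.

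These levels moved with single arrays. The mean level of the meningeal list was 7.84 in lamotrigine rat 3 and 6.13 to 6.19 in the other 4 lamotrigine rats, and it was 6.74, 6.58, 7.45, 6.29 and 7.20 in vehicle rats 1 to 5. Igf2, a growth factor of the meninges, was at 9.40 in lamotrigine rat 3 and at 6.79 to 7.53 in the others, with vehicle rats at 7.46 to 9.26. Microglia genes averaged 8.20 in lamotrigine rat 3 and 7.84 to 7.94 in the others, against 7.997 to 8.20 with vehicle. Endothelial and pericyte genes averaged 8.08 in that rat and 7.45 to 7.74 in the others, against 7.72 to 7.94. Without lamotrigine rat 3 the medians were -0.67 for meninges, -0.28 for endothelial cells and -0.18 for microglia. With the meningeal level as a covariate they were -0.01, -0.13 and -0.04. The first of these is near 0 by construction, since the covariate was the mean of that same list. P2ry12 itself ranged from -0.73 to -0.57 over all alternatives.

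Choroid plexus genes had a median of -0.07, which was 0.06 without vehicle rat 5. In that rat the list averaged 6.90 against 5.63 to 5.82 in the other vehicle rats and 5.59 to 5.83 in the lamotrigine rats, and F5, a clotting factor, was at 5.97 against 4.14 to 4.56 in the other 9 rats. Blood cell genes had a median of 0.02, with 4 higher and 4 lower of 8 measured and differences from -0.30 to 0.35. Among the higher ones, Hbb, a haemoglobin chain read by a probe set that can cross-hybridise, was at 0.33. Alas2, the first enzyme of haem synthesis in red cells, was the highest at 0.35. The part of blood, meninges and choroid plexus in single differences was not tested beyond these fits.

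**Figure D5:**
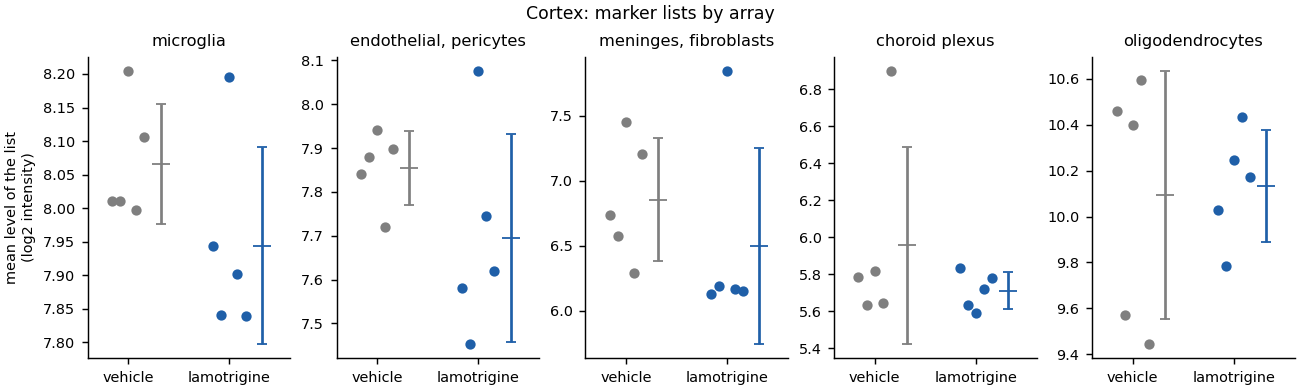
Mean level (log2 intensity) of 5 marker lists in each cortex array, with 1 point per rat in replicate order from left to right, and the group mean and SD beside them. Lamotrigine rat 3 stands at 7.84 in the meningeal list, above the 6.13 to 6.19 of its group, and vehicle rat 5 at 6.90 in the choroid plexus list.

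Neurons and the remaining glia differed less. Medians were -0.06 for upper layer and 0.04 for deep layer cortical neurons, 0.07 for interneurons, -0.06 for astrocytes, 0.02 for oligodendrocytes and -0.08 for their precursors. Pvalb, the calcium-binding protein of fast-spiking interneurons, differed by 0.22 (SE 0.09, adjusted p = 0.831), and Slc1a2, the glutamate transporter of astrocytes, by -0.22. Oligodendrocyte genes averaged 9.44 to 10.60 with vehicle and 9.78 to 10.43 with lamotrigine, so the vehicle rats alone spanned more than a log2 unit. Markers of neighbouring regions had medians of 0.09 for striatal medium spiny neurons, 0.02 for hippocampal neurons and 0.04 for olfactory bulb, septum and thalamus, and the median was 0.03 for proliferating cells and immature neurons, with Cdk1 at 0.32.

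Against LiCl, the other drug of the series, the lamotrigine effect in the cortex differed for 4 probe sets of 31042 (0.0129%), with 4487 (14.5%) at an unadjusted p under 0.05. LiCl minus chow vehicle was called for 4164 probe sets (13.4%) in the same region. Hars1, the cytosolic histidine tRNA ligase, differed by 0.03 with lamotrigine and -0.48 with LiCl, and the difference of effects was 0.51 (SE 0.08, adjusted p = 0.0297). Mlip, a lamin-interacting protein, differed by 0.03 and -0.51 (difference of effects 0.54, SE 0.09, adjusted p = 0.031), and the unnamed probe set 1379263_at by 0.07 and -0.51 (0.57, SE 0.09). Rac2, a small GTPase of blood and microglial cells, differed by -0.17 and 0.47 (-0.63, SE 0.10, adjusted p = 0.031). In all of them the LiCl effect was the larger one. Injection vehicle minus chow vehicle, which shares the chow arrays with the LiCl effect, had the sign of the LiCl effect in each. It was -0.48 for Hars1, -0.20 for 1379263_at and 0.21 for Rac2, all called, and -0.15 for Mlip, not called. Hars1 averaged 8.93 with lamotrigine, 8.90 with injection vehicle, 8.90 with LiCl and 9.38 with chow vehicle. Its difference of effects thus came with a difference between the vehicle groups. The count was 0 after quantile normalization, 0 without lamotrigine rat 2 or 5 or vehicle rat 3, 4 or 5, 1 without vehicle rat 2, and 88 without lamotrigine rat 3.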

How the data were processed

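Total RNA was labelled and hybridised to Affymetrix rat arrays, 1 array per sample. The deposited values are linear intensities that the authors made by robust multi-array averaging (RMA), in R 2.7.2 by the submitters' processing notes. RMA gives background-corrected, quantile-normalized values summarised per probe set, so array medians are close by construction. The values were taken to log2 here with no pseudocount, although log2 values had been planned for. The number of arrays limits the precision.

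After 57 control probe sets were left out, 31042 were fitted with limma 3.58.1 (R 4.3.3), with 1 mean per group over the 20 cortex arrays, an intensity trend and Benjamini-Hochberg adjustment. Calls needed an adjusted p under 0.05. Effects were compared between regions in the 30 arrays of injected rats with the animal as a random block (correlation 0.139). Platform annotation gave 1 symbol to 20826 probe sets (14217 genes), several to 436 and none to 9780. Called genes, or failing these the 24 with the smallest p, all sodium channel genes and up to 4 members of each of 41 lists by p were named, with exceptions marked. List members (697 of 769 measured) were taken by their brightest probe set. Members and lists were chosen with earlier results of these data known. Numbers in the sample descriptions were read as animal numbers, and no other label marks the arrays as separate rats, so p-values cover only the spread between arrays. Alternatives were quantile normalization, median centring, a filter on dim probe sets, covariates, a replicate block, other sets of arrays and leaving out each array. The fits were tested on simulated data. Promoters came from RefSeq tables (GRCr8), in which 18 of 25 early genes matched.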

Additional observations from a re-analysis of the deposited data

Results flagged for a closer look

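In 23 of 262 groups of 5 arrays tested (8.78%), the highest or lowest array was separated from the nearest other by more than 0.71 of the range of its group, where chance gives about 1 in 20. Among the leading genes, this gap was 0.808 of the range for Rap2b in vehicle rat 1, 0.833 for Hyou1 in vehicle rat 4, 0.71 for Hyou1 in lamotrigine rat 5 (low), 0.741 for Cdcp1 in lamotrigine rat 5 and 0.74 for Cdcp1 in vehicle rat 3 (low). Among channels, receptors and signalling genes it was 0.757 for Scn1a in vehicle rat 4, 0.824 for Gabrg1 in lamotrigine rat 1, 0.715 for Maff in lamotrigine rat 4 (low), 0.743 for Dusp4 in vehicle rat 1 (low), 0.767 for Hlf in lamotrigine rat 2 (low), 0.722 for Xiap in lamotrigine rat 3, 0.715 for Mvk in vehicle rat 3 and 0.934 for Nfkb1 in vehicle rat 3, where the whole group spanned only 7.85 to 7.91.

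Among marker genes the gap was 0.742 for Etv1 in lamotrigine rat 2 (low), 0.756 for Pdgfra, 0.716 for Igf2 and 0.757 for Igfbp2, all in lamotrigine rat 3, 0.771 for Ttr in vehicle rat 5 and 0.747 for Alas2 in lamotrigine rat 1. Among list means it was 0.961 for meninges and fibroblasts in lamotrigine rat 3, 0.851 for choroid plexus in vehicle rat 5 and 0.794 for olfactory bulb, septum and thalamus in lamotrigine rat 2. The spread of log2 values gave 0.715 for vehicle rat 3.

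The lamotrigine and LiCl effects differed by limma's test of the difference for Hars1 (0.51), 1379263_at (0.57), Mlip (0.54) and Rac2 (-0.63).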

How the results depend on the processing

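The count of 0 called probe sets for lamotrigine was unchanged in every alternative except when vehicle rat 4 (Hyou1) or vehicle rat 5 (1386621_at and 1374583_at) was left out, so it ranged from 0 to 2 when 1 array was left out, with a smallest adjusted p of 0.00611 to 0.703. The count of 4 for lamotrigine against LiCl was 0 after quantile normalization, 2 with the spread as a covariate (Rbm39 and Nr4a1, with 0 of the 4 shared), 11 with the RNA quality signal as one, and 0 to 88 when 1 array was left out. With 2 alternatives added after seeing the data, it was 0 with the meningeal level as a covariate and 1 without the 3 arrays highest in meningeal genes. The region differences gave 0 in each alternative.

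Replicate numbers were not used to pair the samples in the main fit. The deviations of same-numbered arrays correlated at 0.07, -0.07, 0.24, -0.07 and -0.06. Differently numbered arrays were not correlated for reference, so these values cannot decide whether the numbers pair the samples. With a replicate block the counts were 0 for lamotrigine (1947 at an unadjusted p under 0.05) and 6 against LiCl. Of 495 values of the 24 leading genes under alternatives, 494 kept their direction and side of the threshold, and the exception was Hyou1 without vehicle rat 4. Of 41 list medians, 14 kept their sign in every alternative and 27 did not, with 96 of 902 values of the other sign. Signal near background limits genes with levels under 6.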
